A study of Mus musculus with 2 samples.

Results

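The genes described here are 34 members of the fibroblast growth factor (FGF) pathway, chosen from a fixed list of symbols and found among the 21937 gene features of a single-cell expression library of mouse embryos. They comprise 14 paracrine ligands, 2 endocrine ligands (Fgf15 and Fgf21), 4 intracellular FGFs (Fgf11 to Fgf14), 5 receptors (Fgfr1 to Fgfr4 and Fgfrl1) and 9 genes known to be induced by FGF signaling (Spry1, Spry2, Spry4, Spred1, Spred2, Etv1, Etv4, Etv5 and Dusp6). Their UMIs (molecules counted once each) were summed over the cells of each of the 16 cell types annotated by the study and of each of the 4 cell suspensions.

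Paracrine FGFs are secreted proteins that bind receptor tyrosine kinases together with heparan sulfate and signal mainly through RAS, MEK and ERK. In the embryo they mark small signaling centers, such as the boundary between midbrain and hindbrain and the anterior midline of the forebrain in the neural tube, and they carry signals between epithelium and mesenchyme in face, limb and lung. The pathway limits itself, because ERK activity switches on genes whose products dampen it.

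The embryos were at E11.5 and carried an EGFP transgene with a linked DNA barcode, driven by the ubiquitous CAG promoter. Founders came from fertilized C57BL/6J eggs into which the piggyBac transposon donor and mRNA of the transposase mPBase had been introduced. A founder (F0) embryo was the source of F0_8 and another of F0_9, and F1_1 came from a single F1 embryo, while F1_mix was an artificial mixture of cells of different F1 embryos. Every embryo was transgenic, so no suspension served as a control without the transgene. They were labeled with multiplexing oligos and run together as 1 droplet library, and the second sample of the series is the oligo library of that run. Founders and F1 were thus represented by 2 suspensions each.

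The 5678 annotated cells held 68972620 gene UMIs, with 16052917 to 19160116 per suspension, and no barcode was shared between suspensions. In 12 cell types the median cell held 10898.5 to 29076 UMIs. In the other 4 types (Foregut, Midgut, Hepatocyte and Endodermal Progenitor) the median was 721.5 to 1674, of which 23.0% to 55.9% were mitochondrial, against at most 2.76% in the 12 deeper types. Of the defining markers, those of Neuronal Progenitor, Ependymal Cell, Epithelial Cell, Myoblast/Cardiomyocyte, Mesodermal Progenitor, Gut Mesenchyme/Amniotic Mesoderm, Hematoendothelial Progenitor/Endothelium and Erythrocyte were highest in the type so named. In Ependymal Cell, Ccdc153 and Tmem212 were at 0. The marker sets of CNS Neuron, Neuroectoderm/Glia, Chondrocyte, Erythroblast and the 4 shallow types were higher in another type, and all 4 Midgut markers were at 0 in Midgut, so these names are used only as the labels give them. Levels are given in CPM, the UMIs of a gene per 1000000 gene UMIs, and the spread is the lowest and highest of the 4 suspensions. Since the cell types were defined from these same cells and genes, differences between types are described without a test.

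**Figure D1:**
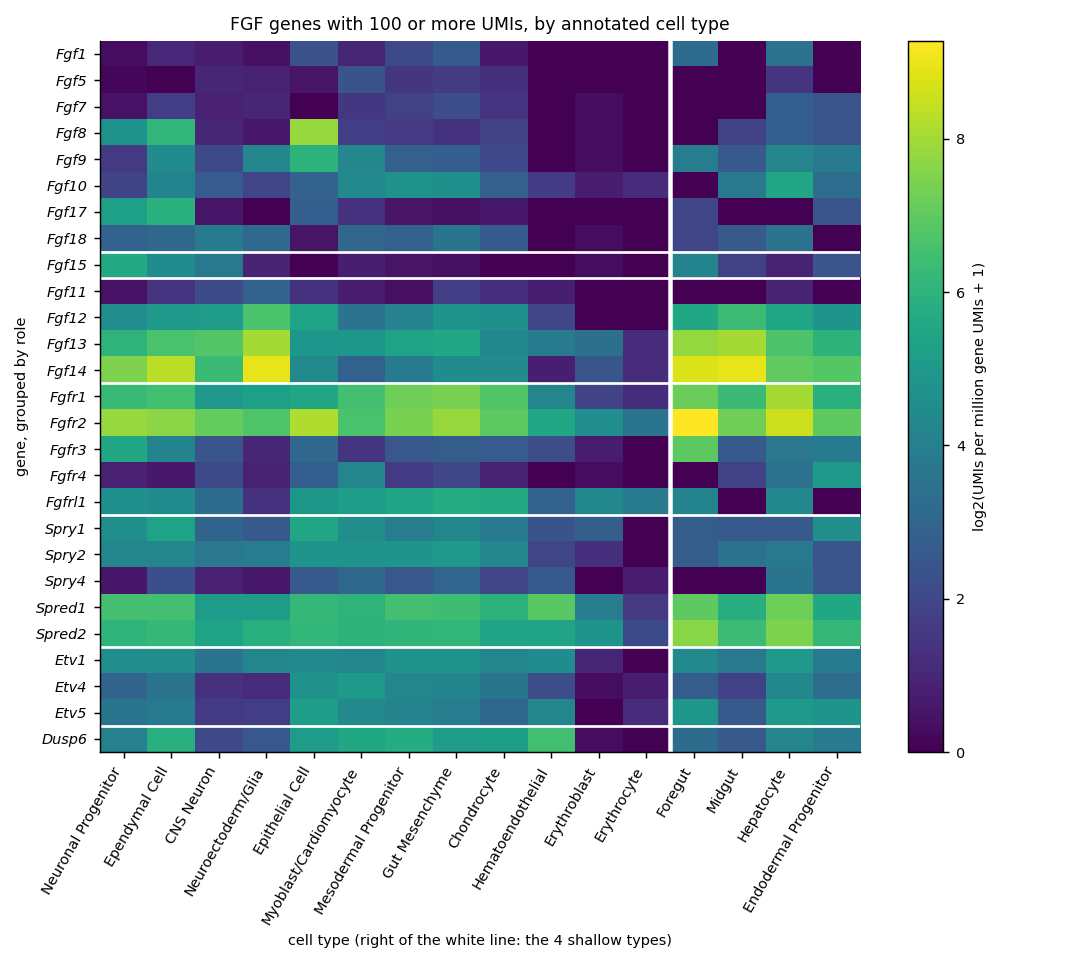
Levels of the 27 members with 100 or more UMIs (rows, grouped by role) in the 16 annotated cell types (columns), as log2 of CPM plus 1, pooled over the 4 suspensions. Fgf8 and Fgf9 were highest in Epithelial Cell, Fgf15 and Fgfr3 in Neuronal Progenitor among the deeper types, and Fgf12, Fgf13 and Fgf14 in Neuroectoderm/Glia and in Midgut.

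Of the 34 members, Fgf21 had 0 UMIs, which allows up to 3 counts in these cells, and 6 had fewer than 100. The other 27 had 100 or more. Among these 27, the type with the highest level lay above all other deeper types in its whole range over suspensions for only 4: Fgf9 in Epithelial Cell, Fgf15 and Fgfr3 in Neuronal Progenitor, and Fgf13 in Neuroectoderm/Glia. For 22 members the ranges of the top and the second type overlapped, and for 10 the same deeper type was highest in all 4 suspensions. In 13 of the 27, a shallow type had a level above the highest deeper type.

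Fgf8, the ligand of the midbrain-hindbrain boundary, forebrain midline and facial and branchial epithelium, was concentrated in 3 cell types. Epithelial Cell held 592 of its 1023 UMIs (57.9%), at 229 CPM (95% Poisson interval 211 to 248.7, counting error only). The founder suspensions stood at 12.1 (F0_8) and 168 (F0_9) CPM, the F1 suspensions at 269 (F1_1) and 407 (F1_mix). Thus F0_8 lay far below the other suspensions. In Ependymal Cell the level was 68.5 CPM, and there the suspensions were close together (56.8 to 80.4). Neuronal Progenitor followed at 25.7 CPM.

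Within these types Fgf8 came from few cells. In Epithelial Cell 31 of 151 cells (20.5%) had an Fgf8 UMI, and 17 cells with 5 or more UMIs held 96.1% of the total, with up to 104 UMIs in 1 cell. In Neuronal Progenitor 27 of 597 cells (4.52%) had an Fgf8 UMI and 11 of them held 89.4% of the total. As background, 1 of 144 Erythroblast cells (0.694%) had an Fgf8 UMI, at a median depth of 29076 gene UMIs against 13388 in Neuronal Progenitor. Outside the suspensions, droplets of 100 to 300 gene UMIs held Fgf8 at 8.88 CPM.

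Fgf17, a close relative of Fgf8 with a broader domain around the midbrain-hindbrain boundary, had 66.7% of its 466 UMIs in Neuronal Progenitor. Its pooled level was 58.7 CPM in Ependymal Cell and 36.7 in Neuronal Progenitor. In Neuronal Progenitor the founders were at 10.4 (F0_8) and 40.1 (F0_9) CPM and the F1 suspensions at 43.5 (F1_1) and 48.2 (F1_mix). In Ependymal Cell the corresponding levels were 95.7, 66.2, 16.6 and 51.3. The order of the 2 types therefore differed between suspensions, and F0_8 was lowest in one type and highest in the other. Only 22 Neuronal Progenitor cells carried an Fgf17 UMI, and 13 of these held 95.8% of its UMIs there.

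Fgf15, the mouse counterpart of the endocrine hormone FGF19 and a gene of dividing neural progenitors in the embryo, was spread more evenly. Its 421 UMIs in Neuronal Progenitor were 74.5% of all its UMIs. The pooled level was 49.6 CPM. Founders gave 52.7 (F0_8) and 48.5 (F0_9) and F1 suspensions 53.6 (F1_1) and 44.5 (F1_mix), each above every value of the other deeper types. A UMI was found in 157 of 597 cells (26.3%). Ependymal Cell followed at 21.4 CPM and CNS Neuron at 12.1.

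**Figure D2:**
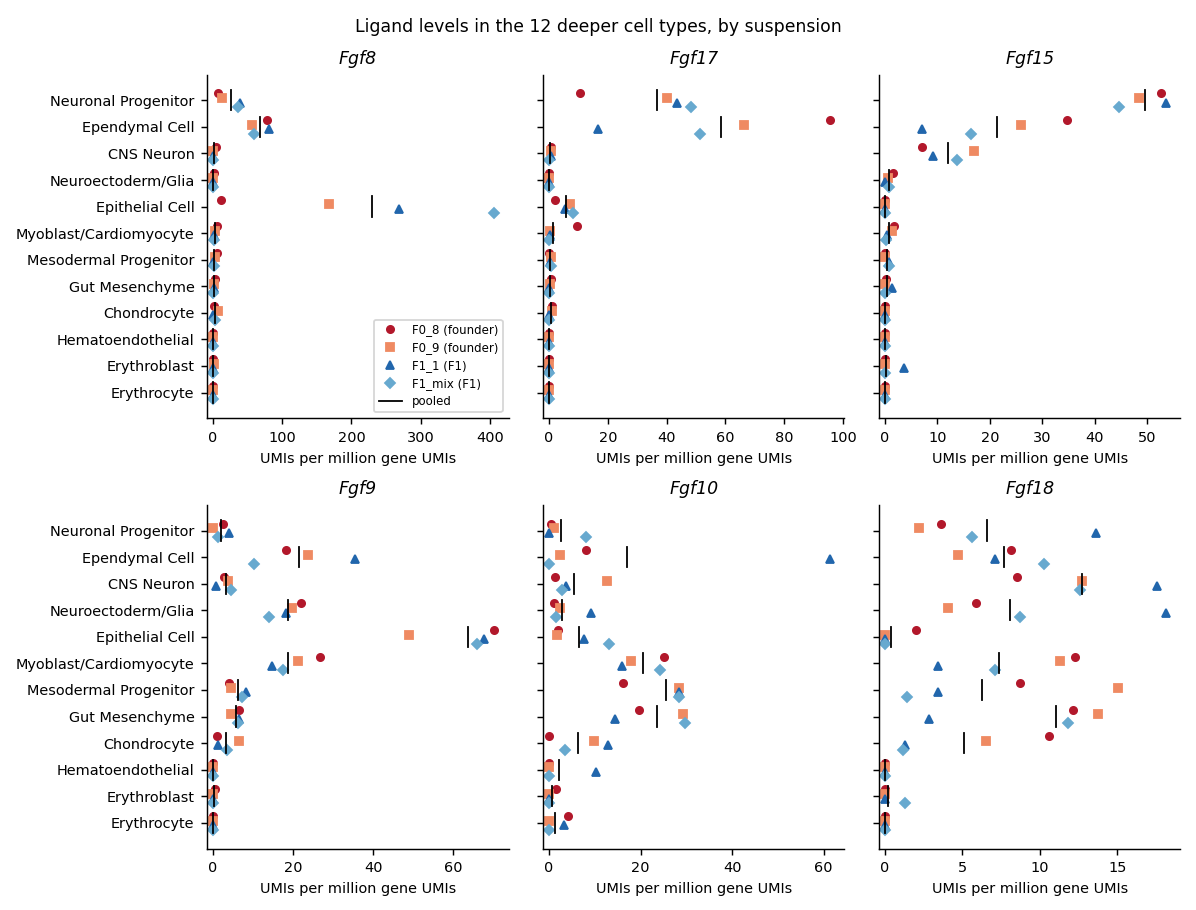
Levels of 6 ligands (CPM, horizontal axis) in the 12 deeper cell types, with a symbol for each suspension and a bar for the pooled level. Fgf15 in Neuronal Progenitor (44.5 to 53.6) and Fgf9 in Epithelial Cell (48.9 to 70.3) were close between suspensions, while Fgf8 in Epithelial Cell ran from 12.1 to 407.

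Fgf9, a ligand made by epithelia and by muscle precursors, was at 63.6 CPM in Epithelial Cell. Founders gave 70.3 (F0_8) and 48.9 (F0_9), F1 suspensions 67.6 (F1_1) and 65.9 (F1_mix). No suspension of another deeper type reached the lowest of these. Ependymal Cell (21.4), Neuroectoderm/Glia (18.8) and Myoblast/Cardiomyocyte (18.6) followed with overlapping ranges. In contrast to Fgf8 in the same type, Fgf9 in the epithelium of F0_8 was not low. Fgf20, a relative of Fgf9, had 50 UMIs in all, and 16 of them were in Epithelial Cell (6.20 CPM).

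Fgf10, the mesenchymal ligand required for limb and lung buds, was at 25.5 CPM in Mesodermal Progenitor, 23.6 in Gut Mesenchyme/Amniotic Mesoderm and 20.6 in Myoblast/Cardiomyocyte. These 3 types could not be ordered: their ranges over suspensions were 16.1 to 28.4, 14.3 to 29.8 and 16.05 to 25.1. Hepatocyte, a shallow type, was at 42.6 CPM (21.3 to 55.8). Of the 31 Fgf10 UMIs in Ependymal Cell, 26 came from F1_1, where the level was 61.5 CPM against 0 to 8.15 in the other suspensions. Droplets outside the suspensions held Fgf10 at 22.9 CPM, close to the levels of the 3 mesodermal types, whereas Erythroblast and Erythrocyte cells together had 5 UMIs among 5882201 gene UMIs.

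Fgf18, active in skeletal and neural development, had no single site. Among the deeper types its levels were 12.8 CPM in CNS Neuron, 11.0 in Gut Mesenchyme/Amniotic Mesoderm, 8.07 in Neuroectoderm/Glia, 7.67 in Ependymal Cell (on 14 UMIs) and 7.34 in Myoblast/Cardiomyocyte, all with overlapping ranges. Fgf5, known from muscle precursors and hair follicles, was highest in Myoblast/Cardiomyocyte at 4.27 CPM (1.70 to 6.69). Fgf1, a ligand that binds all FGF receptors, and Fgf7, a mesenchymal ligand of the epithelial form of Fgfr2, were highest among the deeper types in Gut Mesenchyme/Amniotic Mesoderm, at 5.19 (3.55 to 6.69) and 3.53 (0.716 to 5.78) CPM. Both ranges overlapped with that of the next type, and without F0_8 Fgf7 was at 2.25 CPM there and highest in Mesodermal Progenitor (2.47). Droplets outside the suspensions held them at 1.83 and 3.79 CPM. Of the 27 members, 4 were as high or higher in such droplets than in their top deeper type: Fgf7, Spred1, Spred2 and Etv1.

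The remaining ligands were near the limit of detection. Fgf2 had 96 UMIs, Fgf3 44, Fgf22 20, Fgf16 14 and Fgf4 3 in all 5678 cells. Fgf3, Fgf4 and Fgf15 are neighbors on chromosome 7 of GRCm38 (Fgf3 at 144838612 to 144843348, Fgf4 at 144861386 to 144865245 and Fgf15 at 144896532 to 144900953), and of these only Fgf15 passed 100 UMIs.

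The intracellular FGFs are not secreted and bind the tails of voltage-gated sodium channels. All 4 were highest among the deeper types in Neuroectoderm/Glia. Fgf14 was at 489 CPM there, with 553 (F0_8) and 529 (F0_9) in founders and 381 (F1_1) and 432 (F1_mix) in F1. Fgf13 was at 262 CPM (151 to 333), Fgf12 at 99.2 (74.7 to 119.9) and Fgf11 at 6.56 (4.05 to 11.1). Neuroectoderm/Glia cells are also those with the highest summed level of the CNS Neuron markers, at 7328 CPM against 5568 in CNS Neuron, and their glial markers were low (47.6 CPM). From the list of sodium channel genes, Scn3a was also highest in that type, at 299 CPM (285 to 314.5) against 123 in CNS Neuron. In Midgut it was at 319.7 CPM, like the intracellular FGFs given next.

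Fgf12, Fgf13 and Fgf14 were also high in the shallow types. In Midgut their levels were 81.8, 263 and 493 CPM, close to those in Neuroectoderm/Glia, on 33, 106 and 199 UMIs. In the droplets outside the suspensions Fgf13 was at 209 and Fgf14 at 340.2 CPM, whereas in Erythroblast and Erythrocyte cells together they had 44 and 22 UMIs among 5882201 gene UMIs. These 3 genes are long in the annotation of GRCm38.p6 (595461, 523434 and 703246 bases), against 6877 bases for Fgf11. The part of gene length or of RNA in such droplets in these levels was not tested.

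Among the receptors, Fgfr1 and Fgfr2 were found in most types, while Fgfr3 and Fgfr4 each had over 50% of their UMIs in 1 type. Fgfr1, the main mesenchymal receptor, was highest among the deeper types in Gut Mesenchyme/Amniotic Mesoderm at 167 CPM (143 to 178), followed by Mesodermal Progenitor at 147 (143 to 150.1). Fgfr2, whose splice forms serve epithelium and mesenchyme, was at 286 CPM in Epithelial Cell, with 311 (F0_8) and 300.2 (F0_9) in founders and 296 (F1_1) and 237 (F1_mix) in F1. Neuronal Progenitor (230.4) and Gut Mesenchyme/Amniotic Mesoderm (229) came next, and their ranges overlapped with that of the epithelium. Counts at the 3′ end do not separate the splice forms. Droplets outside the suspensions held Fgfr1 at 161 and Fgfr2 at 256 CPM, or 96.6% and 89.7% of the level in the top type, and Fgfr3 at 26.6 and Fgfr4 at 6.79 CPM, and the part of such RNA in these levels was not tested.

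Fgfr3, a receptor of neural progenitors and growth plate cartilage, had 56.8% of its 672 UMIs in Neuronal Progenitor, at 45.0 CPM. The suspensions gave 53.2 (F0_8), 57.4 (F0_9), 49.2 (F1_1) and 26.1 (F1_mix), all above the highest value in another deeper type. Chondrocyte had only 19 Fgfr3 UMIs (5.41 CPM). Fgfr4, a receptor of muscle precursors, had 65.0% of its 334 UMIs in Myoblast/Cardiomyocyte, at 17.5 CPM. Founders were at 38.5 (F0_8) and 21.2 (F0_9) and F1 suspensions at 8.75 (F1_1) and 15.3 (F1_mix), so that both founders lay above both F1 suspensions, but the difference was not called (edgeR adjusted p = 0.347). Fgfrl1, a receptor without a kinase domain, was at 50.8 CPM in Gut Mesenchyme/Amniotic Mesoderm and 49.5 in Chondrocyte, with overlapping ranges.

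The make-up of the UMIs of the 4 receptor kinases differed between types. Fgfr1 held 45.4% of them in Mesodermal Progenitor (41.4% to 47.7% over suspensions) and 12.8% in Epithelial Cell (9.27% to 18.8%). Fgfr2 held 83.3% in Epithelial Cell (77.4% to 86.0%) and 47.0% in Myoblast/Cardiomyocyte (40.0% to 49.4%). Fgfr3 reached 12.8% in Neuronal Progenitor (8.53% to 14.9%), and Fgfr4 8.45% in Myoblast/Cardiomyocyte (4.29% to 16.4%). These shares are of UMIs and were not corrected for gene length.

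**Figure D3:**
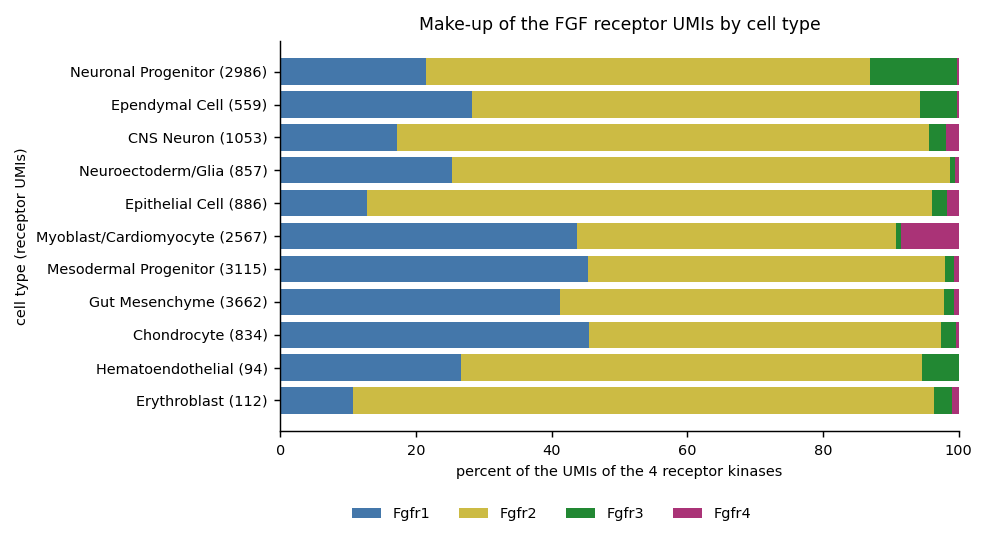
Share of the UMIs of Fgfr1 to Fgfr4 (percent, horizontal axis) in each deeper cell type with 50 or more such UMIs, whose number is in parentheses. Fgfr1 held 45.4% in both Mesodermal Progenitor and Chondrocyte and 12.8% in Epithelial Cell, while Fgfr3 held 12.8% in Neuronal Progenitor and Fgfr4 8.45% in Myoblast/Cardiomyocyte.

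In Foregut, a shallow type, Fgfr2 was at 620.5 CPM (605 to 639) and Fgfr3 at 121 (21.1 to 191). The Foregut markers Foxa2 and Pdx1 were at 0 in these cells, and its marker set was higher in Neuronal Progenitor. Hepatocyte had Fgfr1 at 259 CPM and Fgfr2 at 384, while Afp was at 0. These cells are therefore named only as the labels give them.

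The 9 target genes had different top types. Spred1 and Spred2, inhibitors of RAF activation, were detected across the types, with top levels of 119 CPM (100.2 to 160.3) in Hematoendothelial Progenitor/Endothelium and 71.8 (47.2 to 94.6) in Ependymal Cell. Dusp6, the phosphatase that inactivates ERK, was highest in Hematoendothelial Progenitor/Endothelium at 86.6 CPM, with 104.7 (F0_8) and 89.3 (F0_9) in founders and 76.0 (F1_1) and 75.2 (F1_mix) in F1. No ligand or receptor with 100 or more UMIs was highest in that type, whose cells also had a summed level of 2364 CPM for 4 macrophage markers.

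The Sprouty genes, inhibitors of receptor tyrosine kinase signaling, had pooled levels that were highest in different types, but for each of the 3 the range overlapped with that of the second type. Spry1 was at 43.4 CPM in Epithelial Cell (36.2 to 47.8) and 41.1 in Ependymal Cell (35.5 to 49.7). Spry2 was at 31.5 in Gut Mesenchyme/Amniotic Mesoderm (24.6 to 36.2) and 27.2 in Mesodermal Progenitor (23.5 to 30.8). Spry4 was at 7.66 in Myoblast/Cardiomyocyte (6.40 to 8.997) and 7.18 in Gut Mesenchyme/Amniotic Mesoderm (5.20 to 12.2), and the former was highest in 0 of the 4 suspensions. Of the ETS transcription factors that act downstream of FGF, Etv4 was at 31.5 CPM in Myoblast/Cardiomyocyte (26.4 to 36.5), Etv5 at 36.0 in Epithelial Cell (30.1 to 50.6), and Etv1 at 26.1 in Gut Mesenchyme/Amniotic Mesoderm (22.5 to 39.4). The top types of Etv4 and Etv1 overlapped with the next.

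Promoter windows are shown for the targets on which the next comparison turns, because these genes were high together in the cells with Fgf8 or Fgf17. The windows run from 250 bases before to 50 bases after the transcription start, from RefSeq on GRCm38.p6. Capitals mark CCGGAA or CAGGAA, letters found in ETS binding sites, searched on both strands (as TTCCGG and TTCCTG on the other). The table of promoters had no entry for Etv4, Fgf8 or Fgf17, and no window of Spry4 was searched. Spry1 is at chr3:37639697-37639996 (plus strand), Spry2 at chr14:105896770-105897069 (minus strand), Etv5 at chr16:22439521-22439820 (minus strand) and Dusp6 at chr10:99262981-99263280 (plus strand).
Spry1: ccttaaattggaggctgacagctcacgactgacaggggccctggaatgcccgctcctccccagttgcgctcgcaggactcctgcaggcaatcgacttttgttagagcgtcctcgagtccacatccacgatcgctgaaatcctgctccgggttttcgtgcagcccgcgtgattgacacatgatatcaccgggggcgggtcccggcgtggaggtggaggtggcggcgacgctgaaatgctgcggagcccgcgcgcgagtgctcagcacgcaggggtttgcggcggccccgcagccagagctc
Spry2: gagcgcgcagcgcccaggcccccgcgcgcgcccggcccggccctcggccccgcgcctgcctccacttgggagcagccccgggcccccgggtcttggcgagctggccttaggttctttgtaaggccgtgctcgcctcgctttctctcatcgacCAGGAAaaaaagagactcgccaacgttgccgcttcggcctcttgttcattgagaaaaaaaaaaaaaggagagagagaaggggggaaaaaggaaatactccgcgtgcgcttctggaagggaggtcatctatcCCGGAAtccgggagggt
Etv5: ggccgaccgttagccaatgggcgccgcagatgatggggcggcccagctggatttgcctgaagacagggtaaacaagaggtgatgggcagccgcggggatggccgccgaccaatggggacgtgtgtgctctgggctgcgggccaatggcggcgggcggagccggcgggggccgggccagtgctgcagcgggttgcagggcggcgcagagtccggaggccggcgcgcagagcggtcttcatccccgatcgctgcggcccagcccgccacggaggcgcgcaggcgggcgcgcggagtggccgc
Dusp6: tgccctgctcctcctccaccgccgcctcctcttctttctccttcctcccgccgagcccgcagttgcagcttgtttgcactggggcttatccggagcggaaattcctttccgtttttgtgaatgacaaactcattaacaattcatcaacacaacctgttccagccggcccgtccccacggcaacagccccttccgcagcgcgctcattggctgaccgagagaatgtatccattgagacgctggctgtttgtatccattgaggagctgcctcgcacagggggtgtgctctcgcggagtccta
Of the windows shown, only that of Spry2 held a match, CAGGAA starting at base -98 and CCGGAA at base 34, counted from the start. Etv5 has another window, chr16:22438319-22438618 (minus strand), which is not shown and held CAGGAA at base -57. Over the 34 windows of 25 members searched, CCGGAA occurred in 5 (14.7%), against 14.9% of all 32851 windows. With CAGGAA included, the shares were 44.1% and 41.4%, so the letters were about as frequent in the members as elsewhere.

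Cells with at least 1 UMI of a ligand were then set beside the other cells of the same type, to see which regional genes and targets accompanied it. This is a description, since cells of a suspension are not replicates and the depth of a cell affects detection. Of 80 regional genes, those named had 20 or more UMIs in the detecting cells, a level more than 2 times that in the other cells, and a higher level in every suspension with 5 or more detecting cells.

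In Neuronal Progenitor, cells with Fgf17 or Fgf8 carried regional transcription factors. In the 22 cells with Fgf17, En1 was at 122 CPM against 4.29 in the other 575 cells (28.5 times), Pax5 at 250.3 against 9.07 (27.6 times) and En2 at 191 against 16.9 (11.3 times). These are transcription factors of the midbrain-hindbrain boundary. Six3, a factor of the anterior forebrain and eye field, was also higher (206.5 against 22.7 CPM, 9.11 times). The 27 cells with Fgf8 gave En1 at 13.4 times, Pax5 at 10.9 times and Six3 at 9.35 times, along with Epcam, an epithelial adhesion gene (53.5 against 4.46 CPM). Median depth was 13580 gene UMIs in the cells with Fgf17 and 13388 in the others.

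The boundary genes marked a part of these cells. Of the 36 Neuronal Progenitor cells with Fgf8 or Fgf17, 50% had a UMI of En1, En2 or Pax5 (a group of genes formed after the values were seen), against 12.3% of the 561 cells with neither ligand. Both ligands were found in 13 cells, which were 48.1% of the Fgf8 cells and 59.1% of the Fgf17 cells, whereas 1.58% of the cells without Fgf8 had Fgf17. In the cells with Fgf8, Fgf17 was at 632 CPM against 6.32 in the others, and Fgf18 at 105 against 1.61, the latter higher in 2 of the 3 suspensions compared.

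The target genes were high in the same cells of Neuronal Progenitor. The 6 targets other than Spred1, Spred2 and Etv1 (a group formed after the levels by type had been seen) were summed. In the cells with Fgf17 they stood at 670 CPM against 51.8 in the other cells (12.9 times). The detecting cells were at 616 (F0_8) and 574 (F0_9) CPM in founders and 700.3 (F1_1) and 734 (F1_mix) in F1, and the others at 48.4 to 62.9. Hence no suspension overlapped, although F0_8 contributed only 4 of the 22 cells. With all 9 targets the ratio was 4.49. In the cells with Fgf8 the 6 targets were at 467 against 55.2 CPM (8.47 times), and all 9 at 778 against 229 (3.40 times).

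Single targets showed the same in Neuronal Progenitor. In the cells with Fgf17, Spry1 was at 275 CPM against 13.6, Spry2 at 153 against 12.1 and Etv4 at 65.7 against 4.66. Etv5 and Dusp6 were at 7.80 and 7.76 times the level of the other cells. Spred1 (2.29 times) and Spred2 (1.53 times) differed less. Fgfr2 was lower in these cells, at 128 CPM against 234, and was lower in each of the 3 suspensions with 5 or more such cells, while Fgfr1 was at 144 against 73.2.

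**Figure D4:**
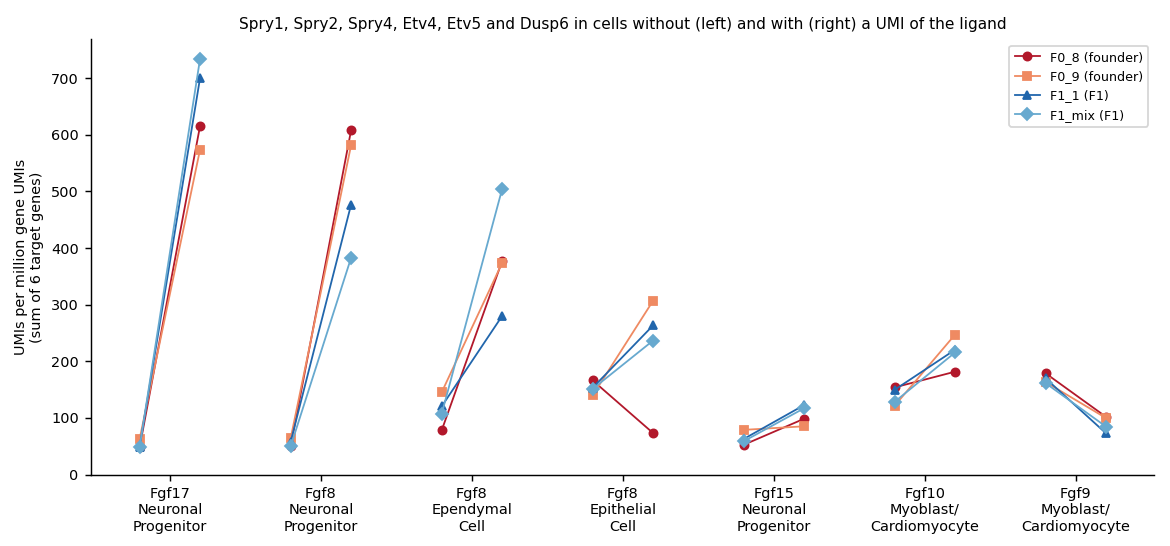
Summed level of Spry1, Spry2, Spry4, Etv4, Etv5 and Dusp6 (CPM) in cells without (left end of each line) and with (right end) a UMI of the named ligand, with 1 line per suspension. In Neuronal Progenitor all 4 lines rise for Fgf17 (to 574 to 734), whereas in Myoblast/Cardiomyocyte all 4 descend for Fgf9.

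In Ependymal Cell, 22 cells with Fgf8 had Rax, a gene of the eye field and hypothalamus, at 191 CPM against 25.6 (7.48 times) and Six3 at 359 against 74.2 (4.85 times). Rax was at 0 in the 4 detecting cells of F1_mix. The 6 targets were at 373 CPM against 110.3 (3.38 times), all 9 at 651 against 282 (2.31 times), and Spry1 at 196 against 19.9. Fgf17 was found in 9 of the 22 cells, which were 81.8% of the 11 Fgf17 cells of the type.

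In Epithelial Cell, the 31 cells with Fgf8 had higher levels of Pax3, Msx1 and Dlx2, transcription factors known from ectoderm and neural crest, among other tissues. Pax3 was at 58.0 CPM against 7.27 in the other 120 cells, Msx1 at 248 against 42.7 and Dlx2 at 61.9 against 12.1. For Pax3, F1_1 was at 122 against 1.42 CPM. The other suspensions were closer, at 24.5 against 17.5 (F0_8), 19.8 against 8.48 (F0_9) and 16.9 against 4.66 (F1_mix). The difference in the 6 targets was smaller here, at 248 against 153 CPM (1.62 times), and F0_8, with 3 detecting cells, went the other way (73.4 against 166). Fgf9 was found in 21 of the 31 cells (67.7%) and in 26.7% of the cells without Fgf8. The 53 cells with Fgf9 had Lmx1a (4.41 times), Dlx2, Six3 and Dlx5 above the others, and Fgfr2 lower in all 4 suspensions (209 against 335 CPM).

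In Myoblast/Cardiomyocyte, cells with Fgf9, Fgf5 or Fgf10 were each set beside the cells without that ligand, and the ligands were not compared with each other. Fgf9 and Fgf10 were found together in 22 cells, which were 26.2% of the Fgf9 cells and 18.03% of the Fgf10 cells, while 11.9% of the cells without Fgf10 had Fgf9. The 84 cells with Fgf9 had higher levels of genes known from muscle differentiation: Tnnt2, a troponin, at 154.5 CPM against 3.45, Myod1 at 236 against 19.8 and Myog at 582 against 60.8. Trp63, an epithelial factor, was at 12.8 against 0.287. Fgfr4 was at 65.5 CPM against 8.52 (7.69 times, higher in all 4 suspensions). In these cells the 6 targets were lower, at 89.0 CPM against 167. Founders stood at 102 (F0_8) and 99.8 (F0_9) against 179 and 163 in the other cells, F1 suspensions at 72.8 (F1_1) and 84.6 (F1_mix) against 169.7 and 161, so that every suspension went the same way, as it did with all 9 targets (217 against 317 CPM). Dusp6 (13.3 against 52.7 CPM), Etv4 (12.3 against 35.1) and Etv5 (10.2 against 21.2) were lower in all 4 suspensions, but Spry2 was at 30.2 against 25.7. The cells with Fgf9 were deeper, with a median of 22277 gene UMIs against 17924, whose part was not tested.

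The 34 Myoblast/Cardiomyocyte cells with Fgf5 had higher levels of Myf5 (7.99 times), Myod1 (6.31 times) and Pax7, genes of muscle precursors. Myf5 ran from 21.5 against 20.5 CPM in F0_8 to 228 against 11.3 in F1_1. The 6 targets were at 134 against 156 CPM in the cells with Fgf5, and higher in 1 of the 4 suspensions. The 122 cells with Fgf10 had higher levels of genes known from limb mesenchyme, among other tissues, with Hoxd13 at 77.1 CPM against 20.6, Lhx9 at 116 against 34.4 and Hoxa13 at 44.5 against 15.5, and also Myf5 (2.01 times), which in F0_8 was at 20.97 against 20.5 CPM and at 2 or more Fgf10 UMIs was 1.91 times as high. Their 6 targets were at 217 against 139 CPM (1.57 times), higher in all 4 suspensions. In the 22 cells with Fgf8 the 6 targets were close (159 against 154.5 CPM). Met was higher in all 4 suspensions, while Tnnt2 and Myog were higher in F0_8 and F1_1 and lower in F0_9 and F1_mix, which held 4 such cells each.

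In the mesenchyme, the regional genes named are again those selected by the rule, which none met for Fgf9 or Fgf10 in Gut Mesenchyme/Amniotic Mesoderm. Hoxd13 was at 66.8 CPM in the 104 Mesodermal Progenitor cells with Fgf10, against 20.2. Fgf18 accompanied Tbx18 (3.16 times), Hand2 and Pitx1 in Gut Mesenchyme/Amniotic Mesoderm, En1 and Tbx5 in Mesodermal Progenitor, and Met and Hand2 in Myoblast/Cardiomyocyte. In suspensions with fewer than 5 detecting cells, Hand2 (21.4 against 42.3 CPM) and Pitx1 (0 against 13.3) were lower in F1_1 in Gut Mesenchyme/Amniotic Mesoderm, and En1 (0 against 5.77) in F1_mix in Mesodermal Progenitor. In Gut Mesenchyme/Amniotic Mesoderm the cells with Fgf1 had more Tbx5, those with Fgf2 more Tbx18 and those with Fgf7 more Emx2, by 2.14 to 3.09 times. For Tbx18 with Fgf2, F1_mix was at 437 against 38.8 CPM, on 4 such cells. F0_8 was at 54.2 against 46.5 and F0_9 at 153 against 67.2. Emx2 was at 0 in the 1 Fgf7 cell of F1_1, against 19.5. In the 21 Mesodermal Progenitor cells with Fgf1, Lhx9 was higher in both F1 suspensions (394 against 30.3 CPM in F1_1) and lower in both founders, which held 3 such cells each, and the 6 targets were at 339 against 123 CPM (2.76 times). All 9 targets were at 537 against 302 CPM (1.78 times), and lower in F0_9. The 25 Mesodermal Progenitor cells with Fgf9 had Pax7 at 57.2 against 10.03 CPM. In Hepatocyte the 33 cells with Fgf10 had Lhx8, a gene of facial mesenchyme and forebrain, at 267 CPM against 13.2, with Eya1 and Twist1 also higher. Lhx8 rested on 36 UMIs against 14, and Eya1 was at 119 against 105 CPM in F0_9. These cells were deeper, with a median of 2638 gene UMIs against 1631.5, whose part was not tested.

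Among neurons, the 23 CNS Neuron cells with Fgf15 had the progenitor genes Hes5 (331 against 31.8 CPM), Sox2 and Dll1. The 48 with Fgf18 had Tfap2a (254 against 81.3) and Neurog2 (404 against 146), and only 5 UMIs of the 6 targets (9.06 against 27.7 CPM). With all 9 targets the levels were 85.1 against 114 CPM, and F1_1 went the other way (126 against 122). In Neuroectoderm/Glia the 6 targets were at 28.2 against 27.6 CPM with Fgf9 (92 cells) and 48.7 against 25.8 with Fgf18 (36 cells). In Neuronal Progenitor, the 157 cells with Fgf15 met the rule for no regional gene, but their 6 targets were at 107 against 62.7 CPM, higher in all 4 suspensions. The 21 Ependymal Cell cells with Fgf9 had Pax6 at 106 against 16.02 and Rax at 163 against 25.6 CPM, with both genes at 0 in the 4 such cells of F1_mix.

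Founders and F1 were compared within a cell type wherever each suspension held at least 20 of its cells (13 types), by edgeR's quasi-likelihood test on the UMIs summed per suspension with Benjamini-Hochberg adjustment over all genes tested in the type. Of 170 pairs of a member and a type, 6 were called at an adjusted p under 0.05, or 3.53%, and 4 of these were higher and 2 lower in founders. Over all genes, 746 of 99241 pairs were called, or 0.752% (0.492% higher and 0.26% lower). Of the 170 pairs, which cover 27 members, 34 (20%) had an unadjusted p under 0.05, against 10.2% over all genes. The median log2 fold change of the member pairs was 0.03, against -0.000757 for all genes, and the median of its size was 0.28 against 0.18. All founder values lay above all F1 values in 39 pairs (22.9%, against 20.8% over all genes) and below them in 27 (15.9%, against 19.8%), so the groups separated about as often as for other genes. The p-values rest on 2 suspensions a side.

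Fgf8 was lower in founders in Neuronal Progenitor. F0_8 was at 7.30 and F0_9 at 12.8 CPM, and F1_1 at 39.6 and F1_mix at 36.5. The groups did not overlap, and the log2 fold change was -1.96 ± 0.27 (SE, n = 2 suspensions a side, edgeR adjusted p = 0.0263). This gene rests on few cells. The detecting cells numbered 4 of 147, 5 of 134, 7 of 150 and 11 of 166 (founders first, F1_mix last). Single cells held 59 of the 90 UMIs of F1_1 and 50 of the 91 of F1_mix, and the counts outside the top cell of each suspension were 3, 14, 31 and 41. The share of cells with En1, En2 or Pax5 was 12.2%, 14.2%, 14.7% and 16.9%, whose part in the difference was not tested. Without F0_8 the adjusted p was 0.0788, the highest of 9 alternatives, whose lowest was 2.95e-05.

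Fgf12 was higher in founders in Mesodermal Progenitor, at 20.5 and 36.7 against 7.203 and 9.10 CPM (log2 fold change 1.77 ± 0.31, SE, edgeR adjusted p = 0.0144). Fgf13, which lies on the X chromosome, was higher in Gut Mesenchyme/Amniotic Mesoderm, at 57.5 and 58.1 against 33.0 and 22.7 CPM (1.07 ± 0.19, edgeR adjusted p = 0.0237). It was also higher in the shallow Foregut, on 13 to 35 UMIs per suspension, at 415 and 274 against 108 and 177 CPM (1.44 ± 0.38, edgeR adjusted p = 0.0236). The summed level of 4 Y-linked genes was 243 (F0_8) and 2.99 (F0_9) CPM in founders and 2.27 (F1_1) and 117 (F1_mix) in F1, so each generation had 1 suspension with such RNA and 1 nearly without.

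In Mesodermal Progenitor, Dusp6 was lower in founders and Fgf18 higher. Dusp6 was at 39.3 and 38.4 CPM in founders against 59.5 and 64.4 in F1 (log2 fold change -0.68 ± 0.14, SE, edgeR adjusted p = 0.0327). Fgf18 was at 8.73 and 15.0 against 3.41 and 1.40 CPM (2.26 ± 0.50, edgeR adjusted p = 0.0431). The groups did not overlap for either gene. None of the receptors was called in any type.

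**Figure D5:**
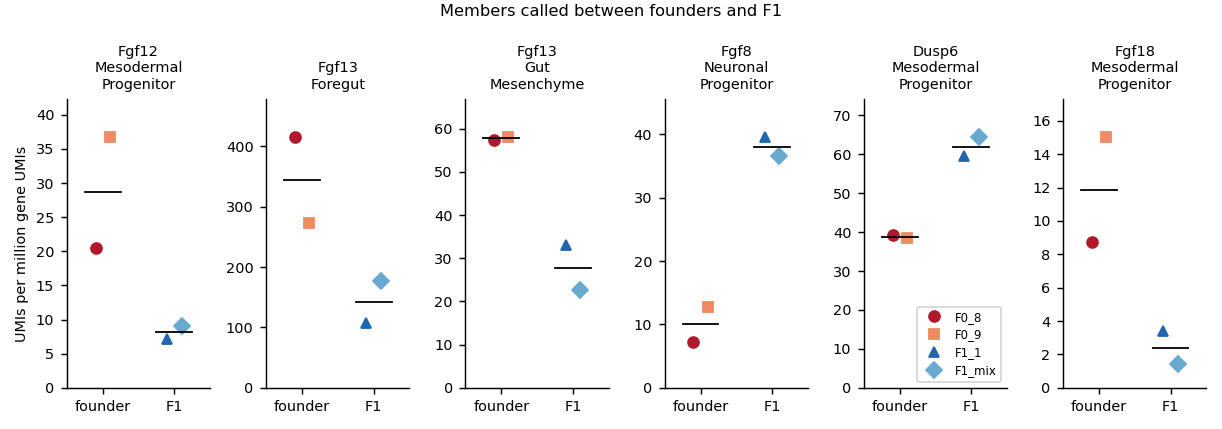
Levels (CPM, each vertical axis from 0) of the 6 called pairs of a member and a cell type in the founder suspensions F0_8 and F0_9 and the F1 suspensions F1_1 and F1_mix, with bars at the group means. Founder and F1 values did not overlap in any of the 6, and Fgf8 in Neuronal Progenitor and Dusp6 in Mesodermal Progenitor were the lower ones in founders.

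These calls depended on the suspensions and the tool. Leaving out a suspension in turn gave 3 calls without F0_8, 10 without F0_9, 7 without F1_1 and 9 without F1_mix, and DESeq2 called 1, Fgf8 in Neuronal Progenitor (adjusted p = 0.00602). The adjusted p of Fgf8 stayed under 0.05 in 8 of 9 alternatives, that of Fgf12 in 7 of 9, of Dusp6 in 6 of 9, of Fgf18 and of Fgf13 in Gut Mesenchyme/Amniotic Mesoderm in 5 of 9, and of Fgf13 in Foregut in 3 of 8. Without F0_9 it was 0.114 for Fgf12, 0.135 for Dusp6 and 0.338 for Fgf18 in Mesodermal Progenitor, and without F0_8 it was 0.239 for Dusp6 and 0.10002 for Fgf18. For Fgf13 it was 0.140 without F0_8 and 0.103 without F0_9 in Gut Mesenchyme/Amniotic Mesoderm, and 0.818 without F0_8 and 0.959 without F1_1 in Foregut. Without F1_mix it was 0.0687 for Fgf18, and for Fgf13 0.0552 in Gut Mesenchyme/Amniotic Mesoderm and 0.130 in Foregut.

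Of the other genes of the pathway, a list of 62 adaptors, kinases, coreceptors, heparan sulfate enzymes, inhibitors, early response genes and sodium channels gave 516 tested pairs, of which 6 were called higher and 1 lower in founders (1.36%, against 0.752% over all genes), with 76 (14.7%, against 10.2%) at an unadjusted p under 0.05. Egr1, an immediate early gene, was higher in Mesodermal Progenitor (log2 fold change 1.25 ± 0.14, edgeR adjusted p = 0.00105) and in Gut Mesenchyme/Amniotic Mesoderm (0.83 ± 0.11, edgeR adjusted p = 0.00666). Fos, also an immediate early gene that responds to tissue dissociation, was higher in Mesodermal Progenitor, at 153 and 132 against 94.8 and 100.5 CPM, but its adjusted p was 0.332 without F0_8 and 0.394 with DESeq2. Gpc6, a heparan sulfate proteoglycan, was higher in Neuroectoderm/Glia, Sulf1, a sulfatase of heparan sulfate, in Gut Mesenchyme/Amniotic Mesoderm, and Flrt1, a membrane partner of FGF receptors, in CNS Neuron. Ccnd1, a cyclin of the cell cycle, was lower in CNS Neuron, at 193.5 and 169 against 351 and 291 CPM (-0.84 ± 0.12, edgeR adjusted p = 0.00955). Of 9 alternatives each, Egr1 in Mesodermal Progenitor kept its call in 9. Without F0_8 the adjusted p was 0.0596 for Egr1 in Gut Mesenchyme/Amniotic Mesoderm, 0.158 for Ccnd1 and 0.553 for Flrt1, and without F0_9 it was 0.0778 for Sulf1. For Flrt1 it was also 0.0535 without F1_1 and 0.503 with DESeq2, and for Gpc6 0.0607 without F1_1 and 0.0761 without F1_mix.

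By role, the genes of this list with the highest level over all cells were spread over the types. The adaptor Grb2 was highest among the deeper types in Hematoendothelial Progenitor/Endothelium at 192 CPM, the kinase Map2k2 in Neuroectoderm/Glia at 224, the proteoglycan Gpc6 in Gut Mesenchyme/Amniotic Mesoderm at 1757 and the heparan sulfate polymerase Ext1 in the same type at 349.6. For Grb2, Map2k2 and Ext1 the ranges overlapped with those of the second type (183, 223 and 344 CPM). Fgfbp3, which releases FGFs from the matrix, was at 143 CPM in Neuronal Progenitor (92.3 to 191) against 35.6 in the next type. Ccnd1 was also highest in Neuronal Progenitor at 559, and Rasa1, a negative regulator of RAS, in CNS Neuron at 116, each with a range that overlapped with the next type. Of the ligands outside the 34, Fgf23 had 16 UMIs and Fgf6 2.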

How the data were processed

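Single-cell RNA of E11.5 embryos was measured in 1 pooled 3′ droplet library. The authors made the deposited UMI counts with Cell Ranger (mm10 with EGFP added), assigned cells to suspensions by oligo, removed doublets with DoubletFinder and annotated cell types in Seurat. The authors removed ambient RNA with SoupX and cells of 5% or more mitochondrial RNA, but the counts used here are the uncorrected ones, in which 4 types lie above that limit. No further doublet caller was run. Of the per-cell table, suspension, oligo and cell type were used, and 19 columns were not. Founders were F0_8 and F0_9, and F1 were F1_1 and F1_mix.

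UMIs were summed by cell type and suspension and divided by all gene UMIs. Intervals (95%, Poisson) cover counting error only. Levels count UMIs of a 3′ library and were not divided by gene length. Types with a median depth more than 3 times under that of all cells were called shallow. Founders and F1 were compared with edgeR 4.0.16 (quasi-likelihood, TMM, filterByExpr, adjusted p under 0.05), with DESeq2 1.42.0 as an alternative, after the steps were tested on simulated data. The SE is the log2 fold change over the square root of F. Motif letters were searched in RefSeq promoters of GRCm38.p6, where 25 members off chromosome 18 had an entry. Python 3.11.15, pandas 2.3.3, scipy 1.17.1 and R 4.3.3 were used.

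All 34 members were described, with every called gene of the pathway list, its highest gene per role, and up to 4 regional genes per ligand and type, of which some are not reported here. Members, lists and tests were chosen with earlier results of these data known.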

Additional observations from a re-analysis of the deposited data

Results flagged for a closer look

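Fgf12 and Fgf18 were higher in founders in Mesodermal Progenitor (called), while in other types every founder value lay below every F1 value. The log2 fold changes there were -0.20 for Fgf12 in Neuronal Progenitor, -1.70 for Fgf18 in Neuronal Progenitor and -1.36 for Fgf18 in Neuroectoderm/Glia. None of these 3 opposite changes was called (edgeR adjusted p = 0.742, 0.247 and 0.259), and the difference between the types was not tested.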

How the results depend on the processing

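No paired analysis was possible because the labels give the suspensions no shared replicate numbers. The number of called pairs over all genes was 736 with the size factors of DESeq2 in edgeR, 748 with 10 cells per suspension and 619 with cells under 5% mitochondrial, against 746. It was 434 with DESeq2 and 3154 with no filter on low counts, and 511 to 1585 when a suspension was left out. Called member pairs numbered 1 with DESeq2, 15 with no filter, 5 to 6 under the other settings and 3 to 10 without a suspension (3 without F0_8, 10 without F0_9). The cause of these moves was not tested, and without a suspension the lone sample is assumed to vary like the other groups. Every called member kept its direction in all alternatives. The highest deeper type of the 27 members was the same for 27 under the other denominator, the mitochondrial limit and the mean of suspensions, and for 22 to 27 when a suspension was left out, where Fgf7, Fgf10, Fgf18, Fgfrl1, Spry1, Spry2, Spred2 and Etv1 changed. Of the 60 regional pairs, all selected for a ratio over 2, 53 could be compared in cells of 5000 or more UMIs (not those of Fgf10 in Hepatocyte and Fgf9 in Ependymal Cell) and 20 at 2 or more ligand UMIs. The ratio stayed over 2 in 53 and 18, where Hand2 with Fgf18 in Gut Mesenchyme/Amniotic Mesoderm was at 1.83 times and Myf5 with Fgf10 in Myoblast/Cardiomyocyte at 1.91 times. Nearly all detecting cells of the 53 pairs already held 5000 or more UMIs, so that limit could not test the part of depth. Depth limits the rare ligands, and most levels in shallow types rest on few UMIs.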
